A study of Homo sapiens with 5 samples.

Results

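The genes described here are 8 parts of the apoptotic protease machinery: the apoptosome scaffold APAF1, cytochrome c (CYCS), DIABLO, and the caspases CASP2, CASP6, CASP8, CASP9 and CASP10. They were chosen by name, all 8 were found among the 27992 named genes of the count table, and all 8 were among the 15099 genes with at least 1 CPM (reads scaled to library size) in at least 1 library. RNA was sequenced in 5 libraries from the human osteosarcoma line U2OS. The parental library came from U2OS cells without a construct. The other 4 libraries, named YFP-negative, low, medium and high for the YFP fluorescence of the sorted fraction, came from U2OS cells carrying pTRIPZ-YFP-ER-E2F1, a doxycycline-inducible fusion of YFP, the hormone-binding part of the oestrogen receptor (ER) and the transcription factor E2F1. By the labels, all 5 libraries, parental included, had 500 ng/ml doxycycline for 48 h with 90 nM 4-hydroxytamoxifen (OHT) for 20 h more, in medium with 8% serum. The sources used here do not say whether the line with the construct is 1 clone.

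Caspases are cysteine proteases made as inactive precursors. In the mitochondrial route, cytochrome c that has left mitochondria binds APAF1, APAF1 assembles into the apoptosome, and the apoptosome activates the initiator CASP9, which cleaves executioner caspases. In the death receptor route, the initiators CASP8 and CASP10 are activated on the adaptor FADD. APAF1 is known as a direct target of E2F1, and the title of the study puts the question of how cell fate depends on the amount of E2F1.

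The libraries held 70.7 M to 76.5 M reads on genes. With a single library per group, no difference has a replicate check, no test was possible and no p-value is given. Values in brackets after a fold are exact 95% intervals of counting error only, and PCR copies of a molecule can make them too narrow. E2F1 itself was at 86.1 CPM in the parental library and at 106, 163, 361 and 996 CPM from YFP-negative through low and medium to YFP-high, and these counts may hold reads of the construct beside those of the cell's own gene. Of 8 mesenchymal and osteoblast markers, 4 reached 1 CPM (VIM, COL1A1, RUNX2 and ALPL), whereas the osteoblast genes SP7, BGLAP and IBSP and the collagen gene COL1A2 stayed below 1 CPM in every library. The summed level of these 8 markers was 4854 CPM in parental and 2340 to 2652 CPM in the sorted fractions. COL1A1 made most of that difference, with 3271 CPM in parental and 1254 CPM in YFP-negative, and it was the 1 marker called of the 4 analysed. The 5 leukocyte markers summed to 0.339 to 0.697 CPM and the 5 endothelial markers to 2.21 to 4.84 CPM. The 5 epithelial markers summed to 454 to 572 CPM through the keratins KRT8 and KRT18, with KRT19 at 0 reads. Within these sums 1 endothelial and 1 epithelial marker were called higher in YFP-high than in YFP-negative: KDR had 120 reads against 3, and EPCAM 11.5 CPM against 3.27. Their part in the results below was not tested.

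The calling rule asked for a log2 ratio of (CPM + 0.5) past 2-fold together with a counting interval that leaves out a ratio of 1. All log2 ratios of CPM given here include the added 0.5 and the folds do not, so they differ most for genes at low CPM. In YFP-high against YFP-negative, 1 of the 8 genes was called higher, APAF1, and 3 were called lower, the initiators CASP8, CASP9 and CASP10. Of all 15099 genes, 20.3% were called higher and 11.3% lower, 31.6% in all, which is 3062 and 1712 genes. With total-count scaling that split was 2415 and 2865, and the counts for the 8 genes were still 1 and 3. The 4 genes not called were CYCS, DIABLO, CASP2 and CASP6. The median log2 ratio of the 8 genes was -0.14, beside -0.05 for all genes. Libraries were made from bulk RNA of sorted cells, so fewer cells with a transcript and less of it per cell cannot be told apart.

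**Figure D1:**
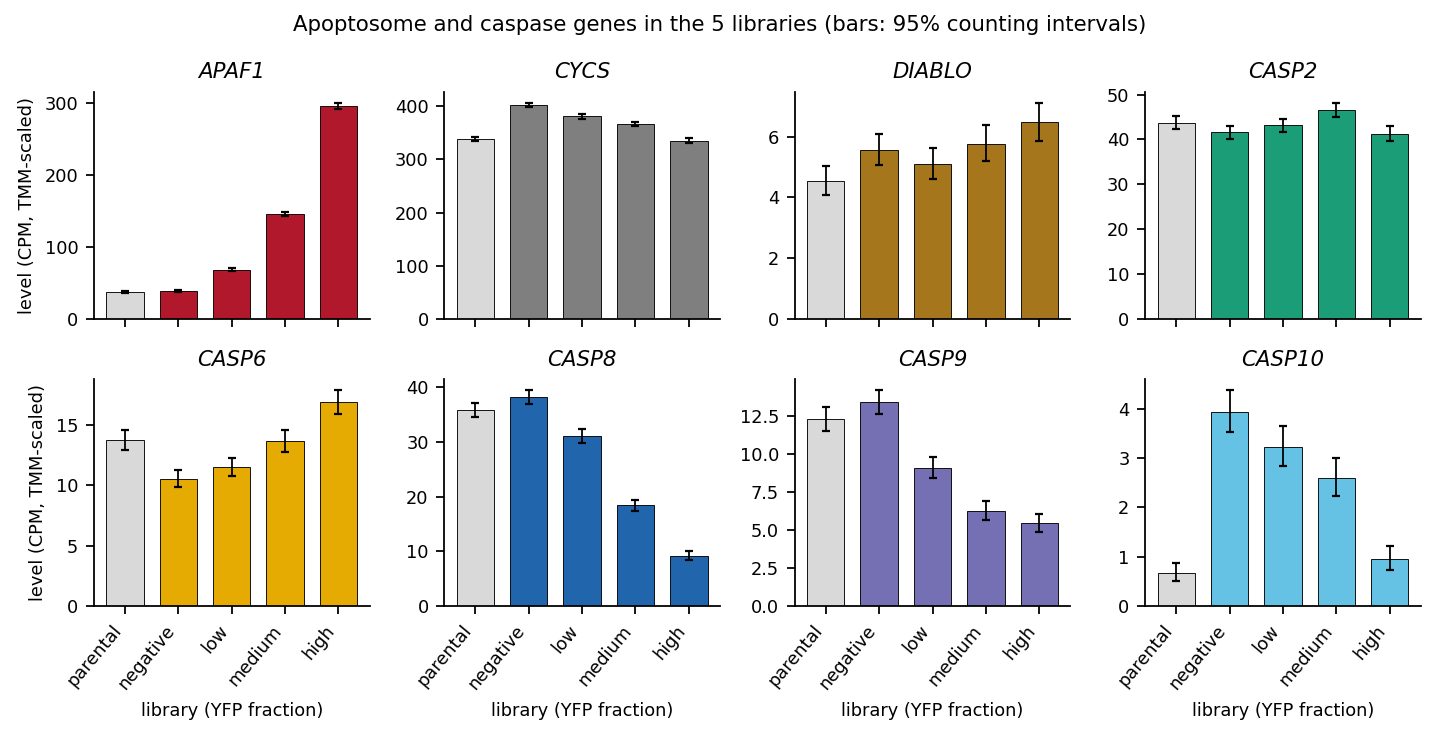
Level of each gene in CPM (scaled with TMM, the trimmed mean of M values; y axis from 0, a separate scale per gene) in the parental library (grey) and the 4 YFP fractions (coloured); error bars are exact 95% Poisson intervals. APAF1 goes from 38.6 CPM in YFP-negative to 296 CPM in YFP-high, CASP8, CASP9 and CASP10 step down, and CASP10 is low in parental.

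APAF1, the scaffold on which CASP9 is activated, was at 37.7 CPM in the parental library and at 38.6, 68.6, 145 and 296 CPM from YFP-negative through low and medium to YFP-high. Parental and YFP-negative were close, with a ratio of 1.02 (0.974 to 1.08), and each sorted fraction lay above the one before it with counting intervals that exclude no change. Against YFP-negative, APAF1 was 1.78-fold higher in the low fraction (1.70 to 1.86), 3.77-fold in the medium (3.62 to 3.92) and 7.66-fold in the high fraction (7.38 to 7.96). The last ratio ranked 443 from the highest among the 15099 genes. Step by step, APAF1 was 1.78-fold, 2.12-fold and 2.03-fold higher, while E2F1 was 1.54-fold, 2.21-fold and 2.76-fold higher over the same steps. The fold of APAF1 was above that of E2F1 at the first step and below it at the other steps. ANKS1B, which overlaps APAF1 in the RefSeq annotation, went from 1.27 to 20.2 CPM between the negative and high fractions, and the part of shared reads was not tested.

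CASP9, the initiator that binds APAF1 through its recruitment domain (CARD), went the other way. It was at 12.3 CPM in the parental library and at 13.4, 9.10, 6.26 and 5.45 CPM from YFP-negative through low and medium to YFP-high. Against YFP-negative it was 1.47-fold lower in the low fraction (1.34 to 1.62), 2.14-fold in the medium (1.91 to 2.40) and 2.46-fold in the high fraction (2.18 to 2.78). Most of the difference was present at medium YFP: the ratio of YFP-medium to YFP-high was 1.15 (0.995 to 1.33), an interval that includes no change.

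CASP8, the apical caspase of death receptors, was at 35.8 CPM in the parental library and at 38.2, 31.0, 18.4 and 9.25 CPM from YFP-negative through low and medium to YFP-high. It was 1.23-fold lower in the low fraction (1.17 to 1.30), 2.07-fold in the medium (1.94 to 2.21) and 4.13-fold in the high fraction (3.78 to 4.51) than in YFP-negative. In the last comparison 115 of the 15099 genes, CASP8 included, had a log2 ratio this low or lower. Unlike CASP9, CASP8 was again lower from YFP-medium to YFP-high, by 1.99-fold (1.81 to 2.20), which lies just inside the 2-fold rule.

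CASP10, the close relative of CASP8, was the least abundant of the 8 genes. It had 53 reads in the parental library and 328, 250, 176 and 61 from YFP-negative through low and medium to YFP-high, which is 0.672 CPM and then 3.93, 3.23, 2.60 and 0.955 CPM. Against YFP-negative it was 1.22-fold lower in the low fraction (1.03 to 1.44), 1.51-fold in the medium (1.26 to 1.83) and 4.12-fold in the high fraction (3.13 to 5.51). It was the only one of the 8 genes called between YFP-negative and parental cells, where it was 5.85-fold higher (4.37 to 7.98); of all genes 2.17% were called higher in that comparison and 2.93% lower, 5.09% in all.

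**Figure D2:**
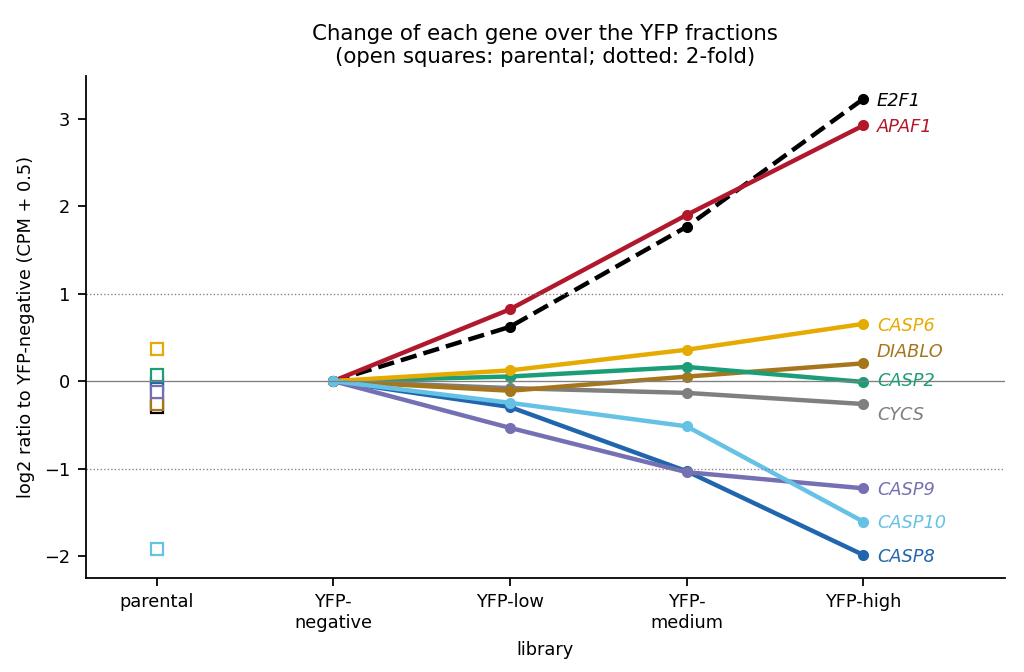
Log2 ratio to YFP-negative (y axis, CPM + 0.5) of E2F1 (dashed) and the 8 genes in each YFP fraction (x axis), with the parental library as open squares and dotted lines at 2-fold. APAF1 and E2F1 reach 2.92 and 3.23 in YFP-high, 3 initiator caspases lie under the lower line, and the parental square of CASP10 lies at -1.92.

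CASP2, an initiator activated on the adaptor PIDD, differed little between libraries. It was at 43.7 CPM in the parental library and at 41.6, 43.1, 46.6 and 41.3 CPM from YFP-negative through low and medium to YFP-high. The ratio of YFP-high to YFP-negative was 0.993 (0.944 to 1.05), an interval that reaches no further than 1.05 upward. The highest level, in YFP-medium, was 1.12-fold that of YFP-negative (1.07 to 1.18). Its direction in YFP-high turned with the scaling, from a log2 ratio of -0.01 to 0.03 with DESeq2 size factors and -0.28 with total counts.

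CASP6, an executioner that cleaves nuclear lamins, was at 13.8 CPM in the parental library and at 10.5, 11.5, 13.6 and 16.9 CPM from YFP-negative through low and medium to YFP-high. Its level in YFP-high was 1.60-fold that of YFP-negative (1.46 to 1.75), short of the 2-fold rule. It was 1.23-fold that of parental cells (1.13 to 1.33), and parental cells had 1.31-fold more CASP6 than YFP-negative cells. The size of these differences depended on the scaling. With total counts the log2 ratio of CASP6 in YFP-high went from 0.65 to 0.39 against YFP-negative and from 0.28 to 0.06 against parental. CCDC109B, which overlaps CASP6 in the RefSeq annotation, had a log2 ratio of 2.03 in YFP-high, and the part of shared reads was not tested.

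CYCS, which carries electrons in mitochondria and binds APAF1 in the cytosol, was the most abundant of the 8 genes. It was at 338 CPM in the parental library and at 402, 380, 366 and 335 CPM from YFP-negative through low and medium to YFP-high. YFP-high was 1.20-fold below YFP-negative (1.18 to 1.22) and its ratio to parental cells was 0.993 (0.975 to 1.01). With total counts the log2 ratio of CYCS in YFP-high went from -0.26 to -0.53 against YFP-negative and from -0.01 to -0.25 against parental. The human genome holds many near-identical pseudogene copies of CYCS, and 7.64% to 7.77% of reads per library had no unique alignment, so its level is uncertain.

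DIABLO, also called SMAC, is released from mitochondria and binds the inhibitor of apoptosis (IAP) proteins. It had 357 reads in the parental library and 463, 395, 391 and 413 from YFP-negative through low and medium to YFP-high, which is 4.53 CPM and then 5.55, 5.10, 5.77 and 6.46 CPM. Neighbouring YFP fractions had counting intervals of their ratio that include no change. YFP-high was 1.16-fold YFP-negative (1.02 to 1.33), and with total counts the log2 ratio turned from 0.20 to -0.05. DIABLO overlaps B3GNT4 in the RefSeq annotation, and 4.06% to 4.33% of reads per library were ambiguous between genes; their part in the low level of DIABLO was not tested.

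In YFP-medium against YFP-negative, 1 of the 8 genes was called higher, APAF1, and 2 lower, CASP8 and CASP9, beside 9.76% and 2.23% of all genes, 12.0% in all. A pseudocount of 2 CPM ended the calls of CASP8 and CASP9 in that comparison. In YFP-low against YFP-negative 0 of the 8 genes were called, beside 2.11% higher and 0.0596% lower of all genes, 2.17% in all, although CASP9 at a log2 ratio of -0.53 was among the 325 lowest of 15099. Between YFP-medium and YFP-low APAF1 was called higher beside 2.7% of all genes called higher and 0.185% lower, 2.88% in all. Between YFP-high and YFP-medium APAF1 was called higher and CASP10 lower, by 2.72-fold (2.02 to 3.70), beside 9.14% and 1.32% of all genes, 10.5% in all. Total counts ended the calls of APAF1 at both of these steps, and TPM ended the first of them. The call of CASP10 held with total counts and was lost with TPM, a 5 CPM filter or a pseudocount of 2 CPM. The comparisons with YFP-negative share that library. Over the 4 sorted fractions, 4 of the 8 genes (CYCS, CASP8, CASP9 and CASP10) had lower CPM at every step and 2 (APAF1 and CASP6) higher, beside 28.0% and 24.0% of all genes. These orders ask for no counting interval. The interval included no change for CASP6 between YFP-negative and YFP-low and for CASP9 between YFP-medium and YFP-high. With total counts CASP2 was lower at every step as well.

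Against the parental library, whose cells lack the construct, YFP-high had 1 of the 8 genes called higher and 2 lower, beside 21.1% and 15.0% of all genes, 36.1% in all. APAF1 was 7.85-fold higher (7.55 to 8.16), CASP8 3.87-fold lower (3.54 to 4.24) and CASP9 2.25-fold lower (1.99 to 2.55). CASP10 was not called: 61 reads in YFP-high against 53 in parental gave a ratio of 1.42 (0.967 to 2.09). The sign of the CASP10 log2 ratio in YFP-high turned with the choice of baseline. With a pseudocount of 2 CPM the log2 ratio of CASP9 to parental was -0.94, which ends its call. The difference in COL1A1 between parental and sorted cells runs with this comparison, and its part in these ratios was not tested.

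**Figure D3:**
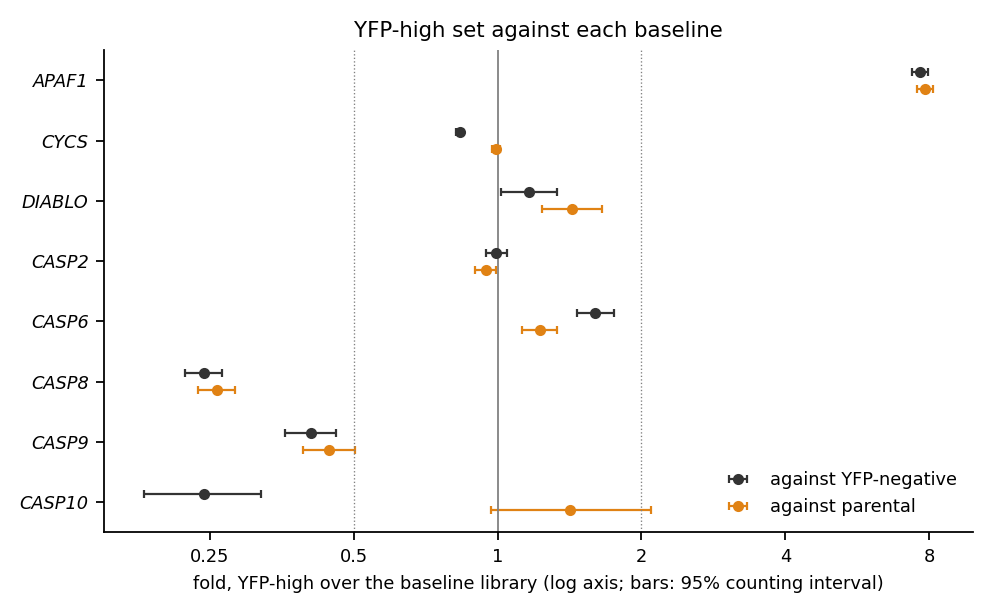
Fold of YFP-high over YFP-negative (black) and over parental (orange) for each gene, on a log2 axis with exact 95% counting intervals; dotted lines mark 2-fold. APAF1, CASP8 and CASP9 keep their side with either baseline, whereas CASP10 lies at 0.243 over YFP-negative and 1.42 over parental.

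Levels of different genes were set side by side in TPM, which corrects for transcript length. In YFP-negative the order was CYCS at 189 TPM, CASP2 at 25.1, CASP6 at 19.7, CASP8 at 15.4, APAF1 at 13.8, CASP9 at 7.48, DIABLO at 6.81 and CASP10 at 1.52. In YFP-high it was CYCS at 145 TPM, APAF1 at 96.9, CASP6 at 28.9, CASP2 at 22.8, DIABLO at 7.26, CASP8 at 3.42, CASP9 at 2.79 and CASP10 at 0.339. APAF1, behind CASP2, CASP6 and CASP8 in YFP-negative, stood next to CYCS in YFP-high, and went from 4.94% to 31.6% of the summed TPM of the 8 genes. CASP8 and CASP10 together went from 16.9 to 3.75 TPM.

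The ratio of APAF1 to CASP9 transcripts, the partners of the apoptosome core, was 1.97 in the parental library and 1.84, 4.83, 14.9 and 34.8 from YFP-negative through low and medium to YFP-high. The last is 18.9 times the ratio in YFP-negative. Gene length and library scaling cancel in this quotient, so the ratio of counts, also 18.9, is no separate check. CASP10 to CASP8 was 0.0990, 0.100, 0.135 and 0.0991 from YFP-negative through low and medium to YFP-high, against 0.0180 in parental cells. The CASP10 to CASP8 ratio differed most between parental and sorted cells, not along the YFP fractions.

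**Figure D4:**
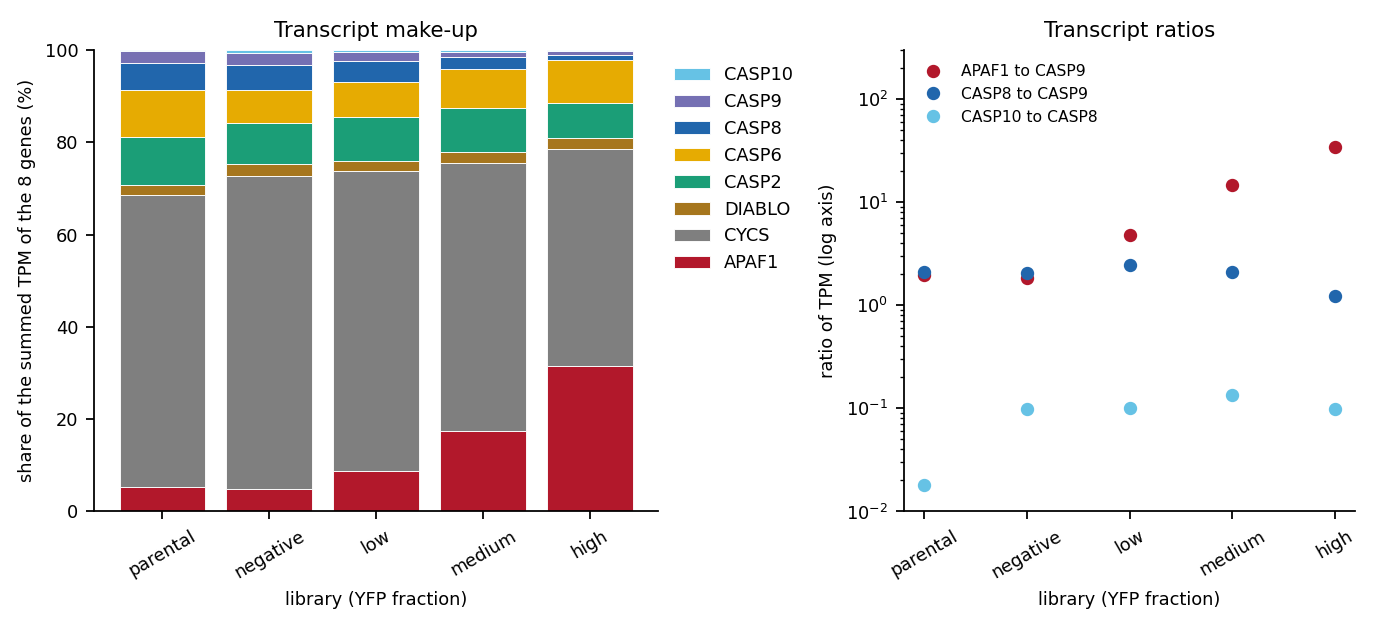
Left, share of each gene in the summed TPM of the 8 genes (y axis, %) per library; right, TPM ratios of 3 gene pairs on a log axis. The share of APAF1 goes from 4.94% in YFP-negative to 31.6% in YFP-high, and APAF1 to CASP9 goes from 1.84 to 34.8.

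Promoter sequences show how the start regions of a gene called higher (APAF1), a gene called lower (CASP8) and a gene with a ratio near 1 (CASP2) read against the letters that E2F proteins prefer. The RefSeq windows (GRCh38.p14; the read counts were made on hg19) gave the 250 bases before a start for 7 of the 8 genes, in 14 windows, with no entry for CASP10. The letters searched on both strands were the 8-letter words TTTCCCGC, TTTCGCGC, TTTGCCGC and TTTGGCGC, the 7-letter words left when each drops its first T, and the 6-letter word TCCCGC, which lies within the first of these. The last was chosen after the sequences had been seen. Capitals below mark matches, here all on the reverse strand, and each sequence is the outermost start of its gene, plus strand, from chr12:98645040-98645289, chr2:201233213-201233462 and chr7:143288101-143288350.
APAF1: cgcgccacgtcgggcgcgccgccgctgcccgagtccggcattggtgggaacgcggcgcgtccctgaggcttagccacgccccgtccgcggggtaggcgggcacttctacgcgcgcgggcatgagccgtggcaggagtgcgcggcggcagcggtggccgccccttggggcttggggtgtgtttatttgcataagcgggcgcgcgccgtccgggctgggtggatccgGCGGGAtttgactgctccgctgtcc
CASP8: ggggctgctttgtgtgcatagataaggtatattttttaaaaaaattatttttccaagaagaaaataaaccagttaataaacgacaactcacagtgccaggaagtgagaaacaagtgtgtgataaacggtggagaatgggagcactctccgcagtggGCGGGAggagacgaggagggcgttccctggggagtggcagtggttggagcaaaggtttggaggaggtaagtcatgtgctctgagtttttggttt
CASP2: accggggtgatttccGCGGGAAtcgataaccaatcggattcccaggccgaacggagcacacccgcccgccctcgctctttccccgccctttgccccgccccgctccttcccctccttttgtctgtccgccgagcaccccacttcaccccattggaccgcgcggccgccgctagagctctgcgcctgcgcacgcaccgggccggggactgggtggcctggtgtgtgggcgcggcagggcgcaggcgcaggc

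None of the 14 windows held an 8-letter word, beside 2.79% of all 35116 windows. A 7-letter word stood in 1 window of CASP2 and in that of CYCS, beside 10.9% of all windows and 13.0% of all genes. With TMM scaling both genes were within 1.20-fold of YFP-negative in YFP-high. The 6-letter word stood in 1 window each of APAF1, CASP2, CASP8, CYCS and DIABLO, beside 23.5% of all windows and 27.0% of all genes. Genes with several windows, such as CASP2, CASP8 and DIABLO, have more chances to hold a word. The 6-letter word lay 20 to 25 bases before the start in APAF1 and 89 to 94 bases before it in CASP8. The APAF1 window was 73.6% G and C with 38 CG pairs, the printed CASP8 window 45.6% with 6, and the median window 58.0% with 11. The other CASP8 windows were at 42.8% and 55.6%. CASP9, also called lower, had windows at 77.6% with 29 CG pairs and 71.6% with 25. CASP6, not called, was at 74.0% with 26, and the printed window of CASP2, not called, at 71.2% with 29. G and C content thus did not follow the direction of the calls in these windows. These matches describe letters in these windows only.

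The other pathway genes came from 6 lists with 46 genes, of which 39 were analysed and 7 stayed below 1 CPM (CASP1, CASP5, CASP12, CASP14, BIRC7, XAF1 and TNFRSF10A). In YFP-high against YFP-negative 3 of the 39 were called higher (7.69%) and 6 lower (15.4%), beside 20.3% and 11.3% of all genes. With total counts 2 of the 39 were higher and 13 lower, beside 2415 higher and 2865 lower of all 15099 genes. The inflammatory caspase CASP4, the 1 gene analysed of the 5 in the list of other caspases, had a log2 ratio of -0.69 and was not called.

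The list of initiator caspase adaptors also holds the death receptors FAS and TNFRSF10B and the regulator CFLAR. This list had 1 of 8 genes called higher, 2 lower and a median of -0.72. The values over all genes were 20.3% higher, 11.3% lower and a median of -0.05. PIDD, the platform for CASP2, was at 36.7 CPM in YFP-negative and 101 in YFP-high, 2.75-fold higher (2.64 to 2.87). FADD, the adaptor that brings CASP8 to death receptors, was at 40.9 and 15.9 CPM, 2.58-fold lower. CFLAR, which encodes the CASP8 regulator FLIP, was at 48.3 and 18.4 CPM, 2.62-fold lower. Against parental cells FADD had a log2 ratio of -1.35 and CFLAR of -0.89. The 5 genes not called in YFP-high against YFP-negative included the receptors TNFRSF10B at -0.95 and FAS at -0.68. The others were CRADD at -0.76, TRADD at -0.50 and RIPK1 at 0.67.

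The IAP proteins and their antagonists had 1 of 8 genes called higher, 1 lower and a median of 0.44. All genes stood at 20.3% higher, 11.3% lower and a median of -0.05. BIRC3, an IAP, was 3.60-fold lower than in YFP-negative, at 7.82 CPM, beside 7.43 CPM in parental cells. SEPT4, which encodes an IAP antagonist in one of its isoforms, had 31 reads in YFP-negative and 177 in YFP-high, a ratio of 7.45 (5.07 to 11.3), and 119 in parental; a 5 CPM filter leaves it out. XIAP, the IAP that binds CASP9 and is antagonised by DIABLO, had a log2 ratio of -0.59 and was not called. Of the other IAPs not called, BIRC6 was at -0.47, whereas NAIP at 0.34, BIRC2 at 0.58 and BIRC5 at 0.76 had the opposite sign. In the apoptosome regulators 1 of 8 was called lower and 0 higher, around a median of -0.21: CARD8 was 2.07-fold lower, with a log2 ratio of -1.02, a call that was lost with DESeq2 size factors or a pseudocount of 2 CPM.

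Mitochondrial pore genes and other released factors had 0 of 6 called in either direction and a median of -0.70. BAX was at -0.80, BOK at -0.76, BAK1 at -0.73, AIFM1 at -0.66, ENDOG at -0.47 and BID at 0.23. Of all genes 20.3% were called higher and 11.3% lower, around a median of -0.05. The list of caspase substrates also holds the nuclease DFFB, whose inhibitor is the substrate. This list had 1 of 8 called higher, 2 lower and a median of -0.65. DFNA5, a gasdermin, was 2.42-fold lower, the nuclease DFFB 2.72-fold lower and the kinase ROCK1 2.18-fold higher. The call of ROCK1 was lost with total counts (log2 ratio 0.85) and with TPM (0.99), and that of DFFB with a pseudocount of 2 CPM (-0.72) or a 5 CPM filter.

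**Figure D5:**
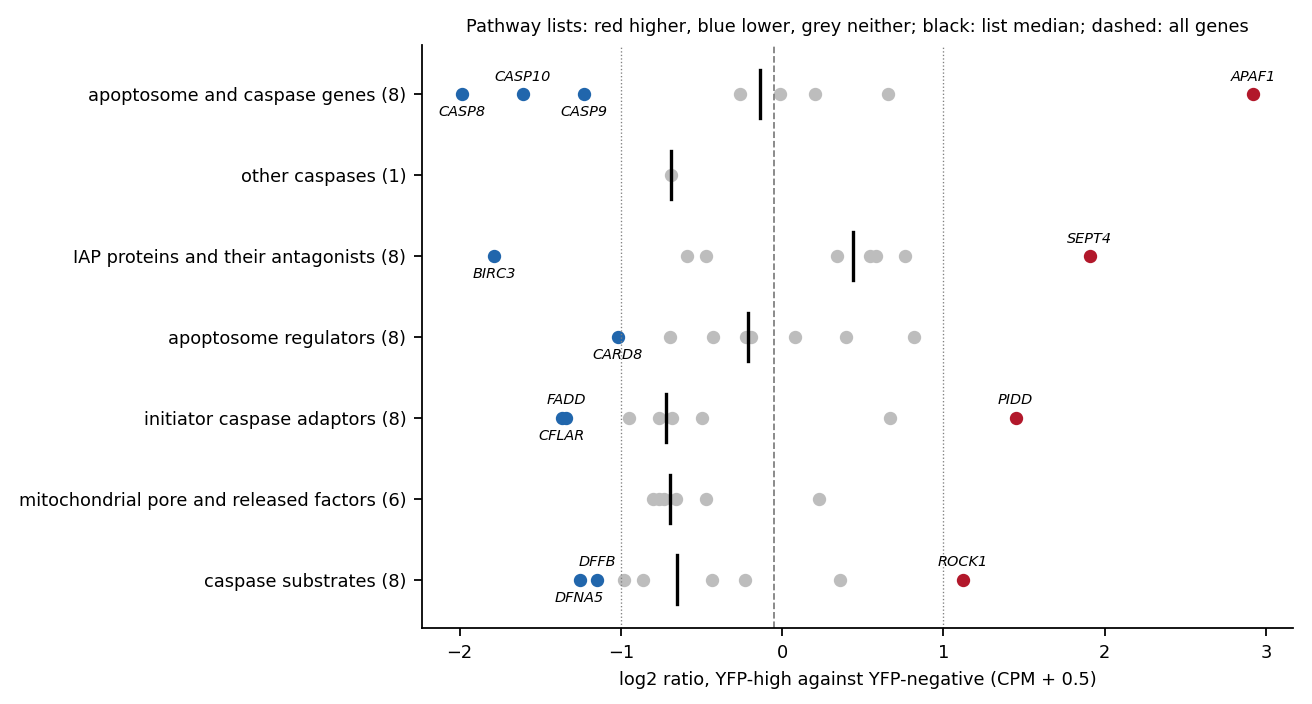
Log2 ratio of YFP-high to YFP-negative (x axis, CPM + 0.5) for each analysed gene of 7 lists, with the number of genes in brackets; red points were called higher, blue lower, grey neither, black ticks are list medians and the dashed line the median of all genes. APAF1 at 2.92 and CASP8 at -1.99 are the extremes of the plot.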

How the data were processed

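The authors deposited raw read counts per gene name and, in a second table, TPM for 24519 named genes, made by a tool that the sources used here do not name. Per the submitters' processing notes the tools included HISAT2 2.0.3 and HTSeq 0.6.0, with Trimmomatic 0.36 and CASAVA 1.8.2, and the build was hg19. The sources used here name neither annotation nor strand setting, so reads of genes that overlap cannot be assigned with certainty. Rows naming no gene were left out: gene rows held 75.7% to 77.7% of reads.

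Counts were scaled with TMM in edgeR 4.0.16 (R 4.3.3) to CPM; the 1 CPM filter used unscaled CPM. Ratios carry exact Clopper-Pearson intervals. Genes, lists, alternatives and naming rules were chosen with earlier results of these data known. Named pathway genes are those called in YFP-high, plus genes chosen after their values were seen. The latter are CASP4, XIAP, BIRC2, BIRC5, BIRC6, NAIP, FAS, TNFRSF10B, CRADD, TRADD, RIPK1, BAX, BAK1, BOK, BID, AIFM1 and ENDOG. Some genes of the lists are not reported here and were left out of the list counts. As alternatives, scaling used total counts or size factors from DESeq2 1.42.0, the filter was dropped or set to 5 CPM, the pseudocount was 2 CPM, TPM replaced CPM, the rule was 1.5-fold or 3-fold, and parental replaced YFP-negative. With TPM, a call rested on the log2 ratio of (TPM + 0.5) past 2-fold alone, without a counting interval. Python 3.11.15, pandas 2.3.3 and scipy 1.17.1 were used.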

Additional observations from a re-analysis of the deposited data

How the results depend on the processing

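Relative to TMM, the median over all genes shifted with total counts, on the log2 scale, by -0.26 in YFP-high against YFP-negative, -0.20 in YFP-medium against YFP-negative, -0.11 in YFP-medium against YFP-low and -0.22 in YFP-high against parental, and with TPM by -0.12, -0.10, -0.07 and -0.10. The calls of APAF1 as higher and CASP8, CASP9 and CASP10 as lower in YFP-high against YFP-negative held with DESeq2 size factors, total counts, TPM, no filter and a pseudocount of 2 CPM, the last with CASP10 at -1.01. A filter of 5 CPM leaves out CASP10. The 3-fold rule ended the call of CASP9, which left 2 genes lower. With the parental library as baseline the log2 ratio of CASP10 turned to 0.31.

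The 1.5-fold rule gave 1 gene higher in YFP-low against YFP-negative (0 by the 2-fold rule), 2 higher in YFP-high against YFP-negative (1), 1 lower in YFP-medium against YFP-low (0), 2 lower in YFP-high against YFP-medium (1), and 6 pathway genes higher and 18 lower (3 and 6). The 3-fold rule gave 0 lower in YFP-medium against YFP-negative (2), 0 higher in YFP-medium against YFP-low (1), 0 higher and 0 lower in YFP-high against YFP-medium (1 and 1), 1 lower in YFP-high against parental (2), and 1 pathway gene higher and 1 lower. Total counts gave 0 higher in YFP-medium against YFP-low, 0 higher and 2 lower in YFP-high against YFP-medium, and 13 pathway genes lower (6). TPM gave 0 higher in YFP-medium against YFP-low and 0 lower in YFP-high against YFP-medium. A pseudocount of 2 CPM gave 0 lower in YFP-medium against YFP-negative, 0 lower in YFP-high against YFP-medium and 1 lower in YFP-high against parental, without CASP9. The 5 CPM filter gave 0 lower in YFP-high against YFP-medium and 0 higher in YFP-negative against parental. Over all 15099 genes, calls lower in YFP-high against YFP-negative numbered 1712, and 2865 with total counts and 1079 with a pseudocount of 2 CPM. These calls lower numbered 3858 by the 1.5-fold and 394 by the 3-fold rule. Calls higher numbered 3062, and 2415 with total counts and 2495 with a pseudocount of 2 CPM. These calls higher numbered 4381 by the 1.5-fold and 1760 by the 3-fold rule. Of 232 log2 ratios of the 8 genes under an alternative, 173 stayed within their counting interval, 58 moved past it and 1 changed sign from a call. No paired analysis was possible because each group holds 1 library. The cause of these differences was not tested.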

Other observations

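Genes with the most similar course over the 5 libraries were found by the root mean square difference of centred log2(CPM + 0.5) values, among 11407 other genes with a mean of at least 5 CPM. For APAF1 the nearest were RRAGD (0.048), a Rag GTPase, at 18.3, 19.8, 34.9, 69.3 and 142 CPM from parental to YFP-high, AK125437 (0.067) and the cathepsin CTSL2 (0.075). For CASP8 they were ABAT (0.047), CCNJL (0.054) and MTAP (0.055), for CASP9 IPW (0.045), TRIM2 (0.046) and ZNF239 (0.051), and for CASP6 P4HB (0.018), CEP112 (0.031) and ZC3H14 (0.043). CASP10, low in parental and YFP-high, had none as close among these candidates. NLRP1, an inflammasome sensor, lay at 0.113, with 3.50, 18.3, 14.9, 11.0 and 5.27 CPM, then DPF3 (0.126) and AK096718 (0.157). CASP10 itself stayed below 5 CPM in every library, so genes as low as CASP10 were not among the candidates. For the level genes the distances were small, with LRP10, TTLL4 and RABGEF1 nearest to CYCS (0.015 to 0.017), MRPL23, PSMA4 and LEMD2 to CASP2 (0.015 to 0.016), and PGM5P2, FSD1 and GOLPH3 to DIABLO (0.019 to 0.027). These distances rest on 5 libraries and describe them only. Among the 8 genes the closest pair was CYCS and CASP2 (0.120), and CASP8 and CASP9 lay 0.344 apart.

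Genes next to the 8 genes were named from RefSeq (GRCh38.p14) by order alone. CFLAR, CASP10 and CASP8 follow each other on chromosome 2, and all 3 were called lower in YFP-high against YFP-negative, at log2 ratios of -1.37, -1.61 and -1.99, beside 11.3% of all genes. As folds, without the added 0.5 CPM, CASP10 and CASP8 were alike, at 4.12-fold and 4.13-fold lower. Against parental cells CASP8 was called lower at -1.90, whereas CFLAR at -0.89 and CASP10 at 0.31 were not called. DNAJC16, beside CASP9 on chromosome 1, went from 29.8 to 7.23 CPM, a log2 ratio of -1.97. IKBIP, beside APAF1 on chromosome 12, had a log2 ratio of 0.34, whereas ANKS1B, which overlaps APAF1, went from 1.27 to 20.2 CPM. CCDC109B, listed by RefSeq as MCUB and overlapping CASP6, went from 14.3 to 60.0 CPM, a log2 ratio of 2.03. B3GNT4, which overlaps DIABLO, was called higher at 1.02. IKBIP was not called, nor were OSBPL3 (0.89) and C7orf31 (0.48) beside CYCS and VPS33A (-0.64) beside DIABLO. The same held for TMEM139 (0.41) beside CASP2 and for SEC24B (-0.63) and PLA2G12A (0.70) beside CASP6. The part of shared reads in the levels of APAF1, CASP6, DIABLO and their overlapping genes was not tested.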
